A study of Rattus norvegicus with 6 samples.

Results

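Genes of motile cilia and of intraflagellar transport were followed in messenger RNA from 6 rat PAIII tumors. The 31 members were taken by name from the 17030 gene symbols of the table. They are every row whose symbol begins with Dnah, Dnai, Dnal, Rsph, Tekt or Ift followed by a digit or letter, together with Foxj1, Ccdc39, Ccdc40, Spag6, Spag16 and Spag17 where listed. Of these, 19 encode parts of the axoneme (called axonemal members here), 11 are Ift genes, and the remaining member is the regulator Foxj1. No member stood on more than 1 row, and Spag17 was not analysed here.

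PAIII is a transplantable, hormone-resistant rat prostate tumor line, passaged in Lobund-Wistar rats and injected under the skin of the flank of rats aged 2 months. Rats A1, A6 and A12 (replicates 1, 2 and 3) were labelled as treated with digitoxin, a cardiac glycoside, at 0.03 mg/kg daily from day 10. Rats B5, B9 and B14 (replicates 1, 2 and 3) were labelled as vehicle controls, and the study took tumors on day 40. By the study's account the treated rats were picked from those with the lowest, and the controls from those with the highest, serum IL-6 and CINC-1, so the groups also differ by that choice. Each library was made from pooled micropunches of 1 frozen tumor. Values are FPKM, that is, fragment numbers divided by transcript length in kilobases and by the number of fragments mapped, so levels of different genes can be set side by side per length. The depth behind them is unknown, and a value of 0 is given as listed at 0. Libraries are compared by treatment as labelled, and no gene in the table checks the treatment. The group means listed in the study's supplement lie nearer to some other assignments of the 6 libraries to the groups than to the labelled one. In each nearer assignment A1 changes places with a vehicle library, and in the nearest one with B9, while no assignment gives those means exactly. Not all of these assignments are nearer by much. For Hspb1 the study compared more tumors than these 6, so the listed means may rest on other tumors too. A1 enters every value given below for A1 with A6, and B9 every value for B5 with B9. The labels could not be settled from the sources used here, so every direction given for digitoxin holds only for the libraries as labelled.

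A motile cilium is built around the axoneme, a cylinder of paired microtubules. Dynein arms on the outer pairs make it beat, radial spokes pass signals from the central pair to the arms, and tektins are filament proteins bound inside the microtubules. Intraflagellar transport, the traffic of protein trains along the microtubules, builds and maintains both motile cilia and the single primary cilium found on many cell types. Multiciliated cells line the airways, the oviduct and the brain ventricles, and Foxj1 is the transcription factor that switches on their motility genes. The tail of the sperm is built from many of the same axonemal proteins.

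The libraries fell into sets that cut across the treatment. The FPKM of the 6 libraries summed to between 651322 and 1025230, with 12148 to 13503 rows above 0. Lung markers were high in 4 libraries and far lower in A12 and B14. Summed over 12 alveolar genes they were at 52358 FPKM in A1, 85923 in A6, 28279 in B5 and 36761 in B9, against 42.2 in A12 and 64.4 in B14. The 8 airway secretory genes summed to 55482 in A1, 130836 in A6, 21000 in B5 and 22886 in B9, against 2.52 in A12 and 1.51 in B14. Of the prostate markers, the keratin Krt8 was at 398 to 2095 FPKM and the adhesion molecule Epcam at 208 to 525 FPKM. Pbsn, which encodes probasin, was listed at 0 in every library, and Hoxb13 and Folh1 reached at most 0.0937 FPKM. In bulk tissue, fewer cells of a type and less RNA per cell cannot be told apart.

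Foxj1, on chromosome 10 from 104946568 to 104948325 in the table's own positions (build not named), followed these sets. It was at 19.2 FPKM in A1, 24.4 in A6 and listed at 0 in A12, against 2.21 in B5, 2.68 in B9 and 0.0485 in B14. A1 and A6 were the highest libraries, B5 and B9 lay between, and A12 and B14 were at or near 0, so the groups overlapped. Foxj1 averaged 14.5 ± 12.9 FPKM (SD, n = 3) over the digitoxin tumors, whereas the vehicle tumors averaged 1.65 ± 1.40 FPKM (SD, n = 3). The log2 fold change on log2(FPKM + 1) was 1.79, with a standard error of 1.32, and limma's adjusted p over all rows was 0.926.

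The tektin genes showed the same order. Tekt1 was at 8.65, 14.9 and 0.300 FPKM in A1, A6 and A12, against 2.01, 1.77 and 0 FPKM in B5, B9 and B14. Tekt2 was the most abundant of the 5, at 24.1 FPKM in A1, 52.8 in A6, 18.1 in B5 and 16.7 in B9, and was listed at 0 in A12 and B14. Tekt4 was at 6.71 FPKM in A1, 10.8 in A6, 1.30 in B5 and 1.20 in B9, and was also listed at 0 in A12 and B14. Tekt3 and Tekt5, which are best known from the sperm tail, had the same order, with 11.4 and 11.2 FPKM in A6 and 0 in A12 and B14. In each of the 5 tektins A6 held the highest value and A12 and B14 the lowest. Tekt2 differed least between A1 with A6 and B5 with B9, as the ratio of means there was 2.21, against 6.99 for Tekt4.

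The radial spoke genes differed in how far they went down in A12 and B14. Rsph1, which encodes a spoke head protein, was at 23.3, 49.8 and 7.56 FPKM in A1, A6 and A12, against 12.2, 8.81 and 6.02 FPKM in B5, B9 and B14. Rsph9, another spoke head gene, was at 18.2, 47.5 and 0 FPKM in A1, A6 and A12, against 6.43, 5.06 and 0.649 FPKM in B5, B9 and B14. Rsph10b was at 6.61 FPKM in A1, 11.6 in A6, 1.22 in B5 and 1.84 in B9, and was listed at 0 in A12 and B14. All 3 had the order of Foxj1, but Rsph1 stayed above 6 FPKM in every library. Rsph6a was under the minimum mean of 1 FPKM and reached at most 0.0817 FPKM.

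The dynein genes split. Dnai1, an intermediate chain of the outer dynein arm, was at 2.38 FPKM in A1, 4.74 in A6, 0.314 in B5 and 0.575 in B9, and was listed at 0 in A12 and B14. Dnali1, a light intermediate chain of inner arms, was at 8.27, 11.1 and 0.0556 FPKM in A1, A6 and A12, against 1.71, 1.86 and 0 FPKM in B5, B9 and B14. Both had the order of Foxj1. Dnai2, the partner of Dnai1 in the outer arm, was at 4.95, 2.86 and 10.3 FPKM in A1, A6 and A12, against 5.63, 5.48 and 8.02 FPKM in B5, B9 and B14. The light chain gene Dnal1 was at 3.07, 1.04 and 5.06 FPKM in A1, A6 and A12, against 2.17, 4.84 and 9.60 FPKM in B5, B9 and B14. Dnai2 and Dnal1 were thus lowest in A6, where most axonemal members were highest, and highest in A12 and B14. The light chain gene Dnal4 ranged only from 18.8 FPKM in A6 to 29.7 in A12. The heavy chain gene Dnah1 was under the minimum mean and reached 1.81 FPKM, in A6.

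Ccdc39 and Ccdc40 encode the coiled-coil ruler that sets the repeat of the axoneme. Ccdc39 was at 3.62, 3.47 and 0.941 FPKM in A1, A6 and A12, against 2.74, 2.27 and 1.16 FPKM in B5, B9 and B14, a narrower range in the same order. Ccdc40 was under the minimum mean and reached 2.12 FPKM, in A6. For the central pair, Spag6 was at 6.38 FPKM in A1, 8.23 in A6, 1.17 in B5 and 1.07 in B9, and was listed at 0 in A12 and B14. The table places its Spag6 row on chromosome 11, where RefSeq now has Spag6l with Spag6 as an older symbol, whereas RefSeq's Spag6 is on chromosome 17, so the row may be that of the paralog. Spag16 was under the minimum mean and reached 0.268 FPKM.

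**Figure D1:**
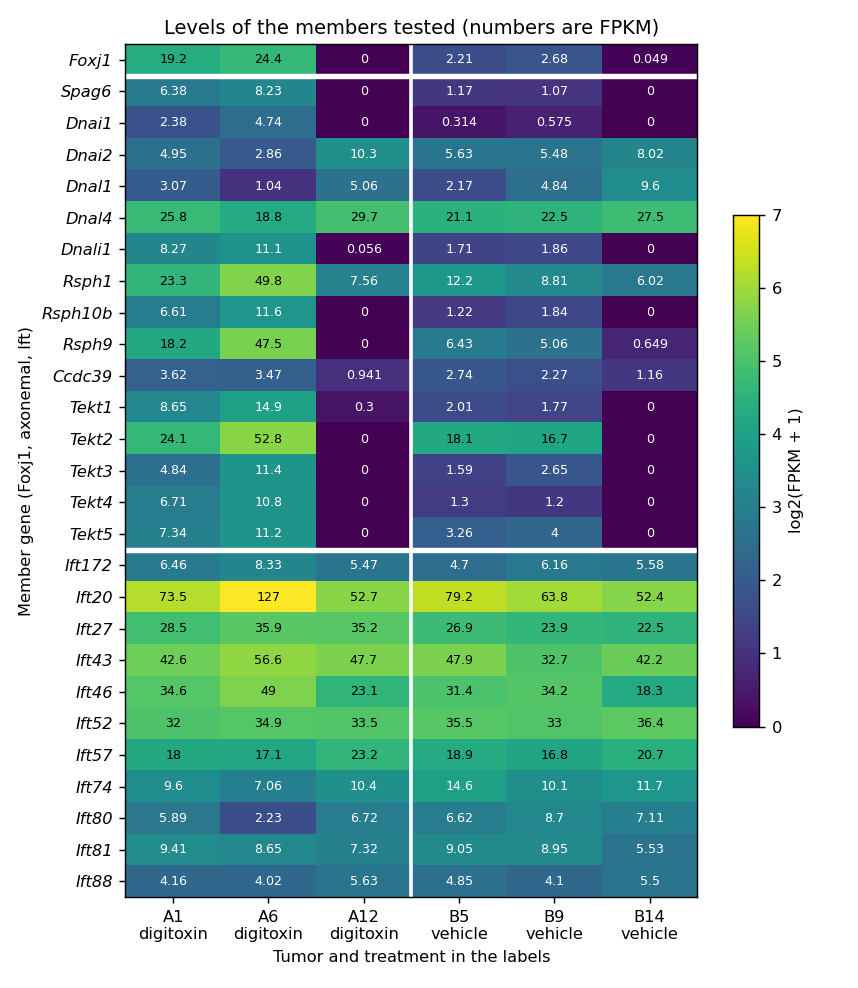
Levels of the 27 members with a mean of at least 1 FPKM in each tumor. Colors give log2(FPKM + 1) from 0 to 7, the printed numbers are FPKM, white lines separate Foxj1, axonemal and Ift members, and the digitoxin libraries are the 3 left columns. Most axonemal rows are brightest in A6 and dark in A12 and B14, whereas Ift rows vary less across the 6 tumors.

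The Ift genes were present in every tumor. Ift20, which encodes the subunit that also sits at the Golgi, was the most abundant, at 73.5, 126.8 and 52.7 FPKM in A1, A6 and A12, against 79.2, 63.8 and 52.4 FPKM in B5, B9 and B14. Ift52, which encodes a core subunit of complex B, was the steadiest, at 32.0, 34.9 and 33.5 FPKM in A1, A6 and A12, against 35.5, 33.0 and 36.4 FPKM in B5, B9 and B14. Ift80, another complex B gene, varied most, at 5.89, 2.23 and 6.72 FPKM in A1, A6 and A12, against 6.62, 8.70 and 7.11 FPKM in B5, B9 and B14. A6 alone was low for Ift80, and A6 alone was high for Ift20. Ift46, also of complex B, was at 34.6, 49.0 and 23.1 FPKM in A1, A6 and A12, against 31.4, 34.2 and 18.3 FPKM in B5, B9 and B14. Of the 11 Ift members it was the only one with the order of Foxj1. Of the others, the means over the 6 tumors were 45.0 FPKM for Ift43, of complex A, 28.8 for Ift27, which encodes a small GTPase, 19.1 for Ift57 and 10.6 for Ift74. They were 8.15 for Ift81, 6.12 for Ift172 and 4.71 for Ift88.

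Taken per tumor, axonemal members and Ift members were nearest in A6 and farthest apart in A12 and B14. The 19 axonemal members summed to 157, 264 and 54.2 FPKM in A1, A6 and A12, against 81.6, 81.5 and 53.0 FPKM in B5, B9 and B14. The 11 Ift members summed to 265, 351 and 251 FPKM in A1, A6 and A12, against 280, 243 and 228 FPKM in B5, B9 and B14. The axonemal sum was therefore 0.594 of the Ift sum in A1 and 0.754 in A6, but 0.292 in B5, 0.336 in B9, 0.216 in A12 and 0.233 in B14. What remained in A12 and B14 came largely from Dnal4, since without it the axonemal sums there were 24.4 and 25.5 FPKM. In A12, 9 of the 19 axonemal members were listed at 0, and in B14 12 of the 19, while none of the 11 Ift members was listed at 0 in any tumor. With median-of-ratios scaling of the libraries, the sums in A6 became 322 for the axonemal and 428 for the Ift members.

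The spread over the tumors separated the classes in the same way. The median SD of log2(FPKM + 1) over the 6 tumors was 1.43 for the 15 axonemal members with a mean of at least 1 FPKM, 0.26 for the 11 Ift members and 0.51 for all 10749 rows at that minimum. Above the 90th percentile of all rows, 1.27, lay 9 of the 15 axonemal members and none of the 11 Ift members. The order in which both A1 and A6 exceeded both B5 and B9, and these exceeded both A12 and B14, was shared by 12 of the 15 axonemal members and 1 of the 11 Ift members, and by 12.8% of all rows. That order was chosen after the values were seen. Dnai2, Dnal1 and Dnal4 were the axonemal members without it.

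**Figure D2:**
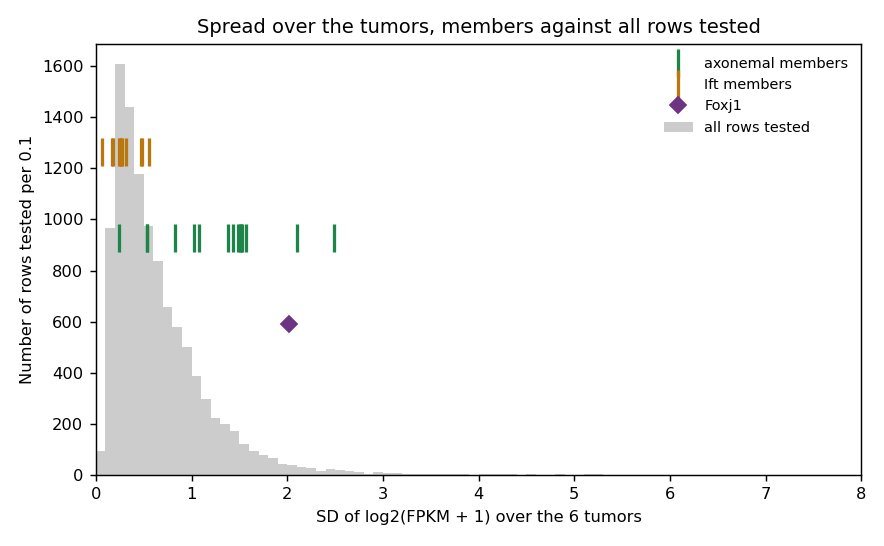
Spread of each gene over the 6 tumors, as the SD of log2(FPKM + 1). Grey bars count all 10749 rows tested in steps of 0.1, green ticks are 15 axonemal members, orange ticks 11 Ift members, and the purple diamond is Foxj1. The Ift ticks sit among the bulk of the rows and most of the green ticks to the right of it.

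The study asked how digitoxin changes the messenger RNA of the tumors. For the members as labelled, the comparison of 3 digitoxin with 3 vehicle tumors gave no call. At an adjusted p under 0.05, 0 of the 15 axonemal and 0 of the 11 Ift members passed limma's test, and neither did Foxj1 (0% of all rows). At an unadjusted p under 0.05 there were also 0 members, against 0.335% of all rows. The median log2 fold change was 1.08 for the axonemal members, with 13 higher and 2 lower, 0.12 for the Ift members, with 7 higher and 4 lower, and -0.16 for all rows. Relative to all rows the axonemal median was 1.24 and the Ift median 0.28. With all 19 axonemal members and no minimum, the median was 0.80, with 17 higher and 2 lower. Median-of-ratios scaling moved the median of all rows to 0.02 and the number of rows higher from 3776 to 5523 of 10749. The Ift split became 9 higher and 2 lower, and the axonemal and Ift medians relative to all rows were then 1.17 and 0.28.

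The largest log2 fold changes among the axonemal members were those of Tekt1, Tekt4 and Dnali1, at 1.53, 1.39 and 1.31. Their standard errors were 1.01, 0.98 and 1.01. Among the Ift members they were those of Ift80 at -0.60 (standard error 0.42), Ift27 at 0.42 (standard error 0.22) and Ift74 at -0.39 (standard error 0.29). The adjusted p of the members ran from 0.926 to 0.977 by limma. Ift27 was the only member tested whose groups did not overlap. It was at 28.5, 35.9 and 35.2 FPKM in A1, A6 and A12, against 26.9, 23.9 and 22.5 FPKM in B5, B9 and B14, so every digitoxin tumor was higher. Of all rows, 0.902% were higher in this way and 3.26% lower. With 3 libraries a side, the smallest two-sided p of an exact permutation test is 0.1.

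Single libraries set the size of the axonemal difference. Without A12 the axonemal median was 2.01 and 9 of the 15 had an unadjusted p under 0.05, all higher, against 4.06% of all rows higher and 15.6% lower. Without A6 the median was 0.23 and without B14 it was 0.54, with 0 members under that p in each. The log2 fold change of Foxj1 was 3.29 without A12, 1.12 without A1, 0.96 without A6 and 1.22 without B14. Tekt1, Tekt4 and Dnali1 were at 2.61, 2.47 and 2.42 without A12 and at 0.80, 0.69 and 0.66 without A6. Without B14 they were at 1.02, 1.00 and 0.82, and without A1 Dnali1 was at 0.85. Ift80 was at -0.21 without A6, while Ift74 was at -0.24 without A6 and -0.26 without B5.

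With the replicate number as a block in limma, 7 of the 15 axonemal members and Foxj1 had an unadjusted p under 0.05, all higher with digitoxin, against 1.32% of all rows. The 7 were Spag6, Dnai1, Dnali1, Rsph1, Rsph10b, Tekt1 and Tekt4. Of these, Spag6, Dnai1 and Tekt4 passed the minimum mean only through the digitoxin libraries, since their vehicle means were 0.746, 0.296 and 0.836 FPKM. The counts of members called are therefore given as a description only. None of the 11 Ift members had an unadjusted p under 0.05 with the block, and no member passed the adjusted threshold.

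The comparison was repeated without both tumors numbered 3, A12 and B14, which leaves A1 and A6 against B5 and B9 and was set with their low lung markers known. The axonemal members then stood farther apart from the Ift members. Foxj1 had a log2 fold change of 2.72 (standard error 0.39), an unadjusted p of 0.000365 and an adjusted p of 0.392 by limma. Of the 15 axonemal members, 10 had an unadjusted p under 0.05, all higher, against 3.87% of all rows higher and 7.14% lower. They were Rsph9, Tekt1, Tekt4, Spag6, Rsph10b, Dnali1, Rsph1, Dnai1, Tekt3 and Tekt5, with log2 fold changes from 2.19 for Rsph9 to 1.13 for Tekt5. Spag6, Dnai1 and Tekt4 are among them and were tested only through their high values in A1 and A6, so this count is a description too. Tekt2 was at 1.00 with a standard error of 0.42, and Ccdc39 at 0.38 with a standard error of 0.41. No Ift member had an unadjusted p under 0.05. The medians were 1.61 for the axonemal, 0.00 for the Ift members and -0.24 for all rows. No member passed the adjusted threshold, which 2 rows (0.0186%) did. Both A1 and A6 exceeded both B5 and B9 for 12 of the 15 axonemal and 3 of the 11 Ift members, against 17.2% of all rows.

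**Figure D3:**
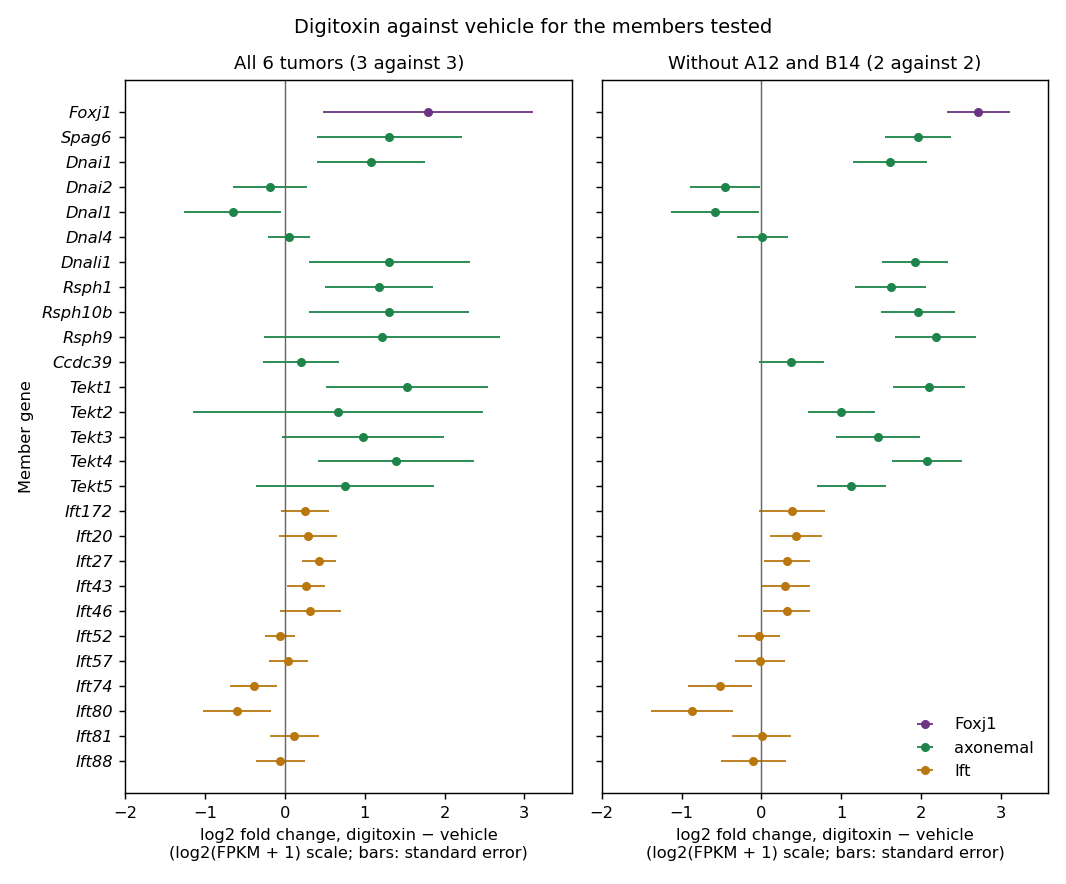
Log2 fold change of digitoxin against vehicle for the 27 members tested, on the log2(FPKM + 1) scale. Points are limma estimates with bars of 1 standard error, from all 6 tumors on the left and without A12 and B14 on the right, with Foxj1 in purple, axonemal members in green and Ift members in orange. On the right the bars of most axonemal members are shorter and clear of 0, whereas Ift members lie between -0.87 and 0.44 in both panels.

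Most markers of the lung had the order of the axonemal members. It was shared by 8 of the 12 alveolar genes and 4 of the 7 airway secretory genes tested, against 12.8% of all rows. A12 and B14 were known for their low lung markers, so for lung genes the last step of this order is no separate result. Between the means of A1 with A6 and of B5 with B9, the ratio was 8.93 for Foxj1, 2.59 for the summed axonemal and 1.18 for the summed Ift members. For the same libraries it was 2.13 for the summed alveolar and 4.25 for the summed airway secretory list. Sftpc, the surfactant protein of alveolar type 2 cells, had a ratio of 2.28, while the surfactant gene Sftpa1 was at 7068 and 6689 FPKM in A1 and A6 and at 4588 and 5674 in B5 and B9. Scgb1a1, the secretory protein of airway club cells, had a ratio of 4.23. The sums rest mainly on these abundant genes, and others of the lists differed in both directions. The ratio was 15.2 for Cyp2f4, 14.1 for Scgb3a1 and 5.69 for Scgb3a2, all of the airway list, so Cyp2f4 and Scgb3a1 lay above Foxj1, as did Bpifa1, which was at 10.9 FPKM in A1 and at or near 0 elsewhere. Without A12 and B14, 6 of the 12 alveolar and 3 of the 7 airway genes tested had an unadjusted p under 0.05, all higher, against 3.87% of all rows. The ratio was 1.13 for Slc34a2, 0.930 for Cldn18, 0.740 for Lamp3, 0.353 for Rtkn2 and 0.0827 for Reg3g, a gene that was high in B5 alone. In the same libraries the ratio was 0.598 for the summed prostate epithelium list and 0.725 for the summed mesothelium list, and Epcam was lower, at -0.82 on the log2 scale (standard error 0.30), with an unadjusted p of 0.0308 and an adjusted p of 0.392 by limma. The range of the alveolar sum was 42.2 to 85923 FPKM in digitoxin and 64.4 to 36761 in vehicle tumors, and that of the airway sum 2.52 to 130836 and 1.51 to 22886. In A12 and B14 together, 3 of the 12 alveolar genes found and 6 of the 8 airway secretory genes found were listed at 0 in both, Scgb3a2, a defining airway gene, among them. Their part in the axonemal differences was not tested.

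Markers of multiciliated cells followed the same libraries. The 5 of 8 that were found, with Foxj1, Tppp3, Dynlrb2 and Sntn among them, summed to 600, 1238 and 7.69 FPKM in A1, A6 and A12, against 213, 260 and 5.78 FPKM in B5, B9 and B14. Tppp3 made most of these sums, at 484 and 999.5 FPKM in A1 and A6 and 188 and 241 in B5 and B9. Its ratio of A1 with A6 to B5 with B9 was 3.45, against 8.93 for Foxj1. Markers of male germ cells, whose sperm tails share the axonemal genes, were at or near 0. Dazl, Tnp1, Tnp2, Prm1, Prm2 and Prm3, 6 of the 10 germ cell markers, were listed at 0 in every library. The list summed to at most 2.43 FPKM, in B14, of which Odf1 made 2.27, and Sycp3 reached at most 0.514 FPKM. Of the mesothelium markers, Krt19 was at 599 to 1865 FPKM and Msln at 77.6 to 193, with both lowest in A6, while Calb2 was listed at 0 in 4 of the 6 tumors and reached at most 0.0634. Wt1 of the same list was at 4.56, 1.82 and 1.22 FPKM in A1, A6 and A12, against 3.45, 2.73 and 0.965 FPKM in B5, B9 and B14, so it was lowest in A12 and B14.

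**Figure D4:**
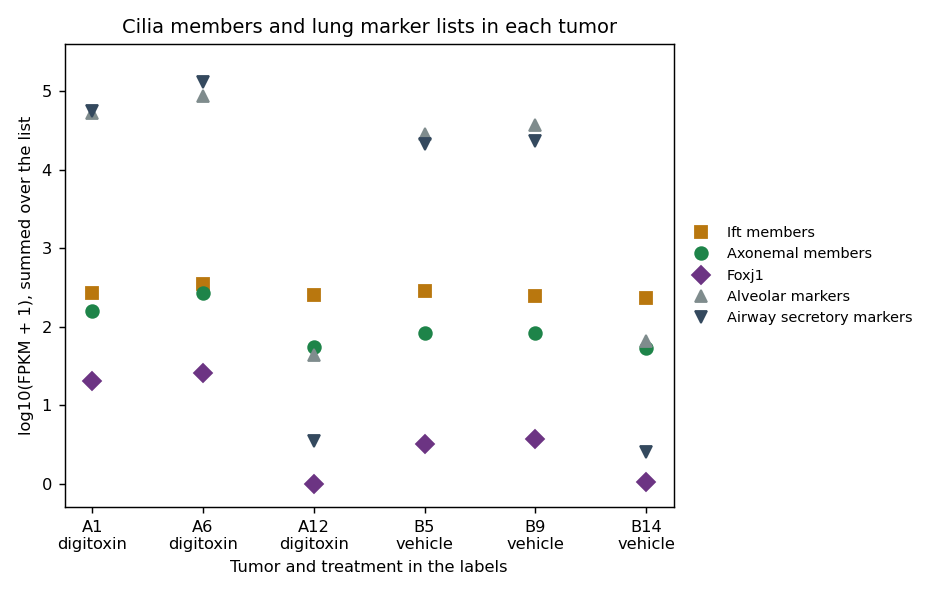
Summed FPKM of the axonemal members, the Ift members, Foxj1 and the alveolar and airway secretory marker lists in each tumor, on a log10(FPKM + 1) scale, with the tumors and their treatment along the horizontal axis. Foxj1 and both marker lists drop in A12 and B14 and the axonemal sum reaches its lowest values there, while the Ift sum stays between 228 and 351 FPKM.

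Other cilium genes were read from lists set beside the members. In the fit of all 6 tumors no gene of these 7 lists had an unadjusted p under 0.05. Of the 39 other axonemal and ciliary tip genes listed, 25 were found and 20 tested, with a median log2 fold change of 0.98. Tppp3, a tubulin polymerization protein, was at 484, 999.5 and 7.32 FPKM in A1, A6 and A12, against 188, 241 and 5.49 FPKM in B5, B9 and B14. Dynlrb2, a dynein light chain of the roadblock type, was at 89.0, 202.7 and 0.371 FPKM in A1, A6 and A12, against 20.1, 15.0 and 0.243 FPKM in B5, B9 and B14. Without A12 and B14, 13 of the 20 had an unadjusted p under 0.05, all higher, against 3.87% of all rows, and with the replicate block 10 did, against 1.32%. Of 12 dynein assembly and docking genes found, 7 were tested, with a median of 0.49. Zmynd10, Ccdc114 and Ttc25 were the 3 under that p without A12 and B14, all higher, where the share of all rows was 3.87%. The 2 most abundant of this list, Heatr2 and Dnaaf2, had log2 fold changes of -0.08 and -0.56 in all 6 tumors.

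Transport and primary cilium genes had medians near that of all rows, -0.16. The median log2 fold change was -0.13 for 7 tested subunits of the transport complexes whose names lack the Ift prefix, -0.19 for 9 transport motor genes and -0.10 for 20 genes of the BBSome and the transition zone. It was -0.27 for 4 tested genes of the Hedgehog pathway, which signals through the primary cilium. The median SD of log2(FPKM + 1) over the tumors was 0.64, 0.36, 0.41 and 0.55 for these 4 lists, in the same order, above the 0.26 of the Ift members. The complex subunit genes Ttc26 and Wdr19 ran from 0.305 to 6.69 and from 0.200 to 6.31 FPKM, lowest in A6 and highest in B14. None of the tested genes of these 4 lists had an unadjusted p under 0.05 in the main comparison, where 0.335% of all rows did. Without A12 and B14 none did either, against 3.87% of all rows higher and 7.14% lower. Hspb11 and Cluap1 were the most abundant subunits, at 20.5 to 59.6 and 15.8 to 30.0 FPKM, and Dynlt1 and Kif3a the most abundant motor genes, at 97.8 to 188.9 and 9.13 to 24.0. Tmem216 ran from 15.3 to 32.0, Sufu from 2.85 to 8.24 and Ptch1 from 0.926 to 4.85 FPKM, while B9d1 was listed at 0 throughout. Dync2li1, the light intermediate chain of the transport dynein, was singled out after its values were seen. It was at 12.4, 20.4 and 0.494 FPKM in A1, A6 and A12, against 7.11, 8.85 and 0.732 FPKM in B5, B9 and B14, the order of Foxj1.

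Of the other regulators of the multiciliated program, 7 of 14 were found and 3 tested. E2f4, a cell cycle transcription factor that also takes part in multiplying centrioles, was at 51.6, 32.1 and 84.9 FPKM in A1, A6 and A12, against 64.1, 62.9 and 77.7 FPKM in B5, B9 and B14. Rfx3, a transcription factor of the RFX family that binds promoters of cilium genes, was at 1.39, 0.124 and 6.29 FPKM in A1, A6 and A12, against 2.83, 3.15 and 6.49 FPKM in B5, B9 and B14. For both, A6 was lowest and A12 and B14 highest. Rfx2, a relative of Rfx3, was at 4.79, 3.15 and 1.91 FPKM in A1, A6 and A12, against 3.01, 3.23 and 1.87 FPKM in B5, B9 and B14. The regulators found below the minimum mean differed from E2f4 and Rfx3. Tp73, Ccno and Ccdc67 had the order of Foxj1, with highest values of 1.92, 0.980 and 0.405 FPKM and ratios of A1 with A6 to B5 with B9 of 7.76, 4.87 and 3.26. Foxn4 reached at most 0.0659 FPKM. Of the 3 tested, only Rfx3 had an unadjusted p under 0.05 without A12 and B14, where 7.14% of all rows were lower at that p. It was lower, at a log2 fold change of -1.28 with a standard error of 0.51.

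RFX factors bind paired arms of the type GTTNC and GNAAC, so the promoters of the members were searched for them, in windows from 250 bases before to 50 bases after the gene start (RefSeq, rat build GRCr8). A window on the table's chromosome was found for 23 of the 31 members, 15 axonemal and 8 Ift. The arms GTTNC and GNAAC, 2 to 4 bases apart, were in 4 of the 15 axonemal windows, in 0 of the 8 Ift windows and in 2.13% of all 33469 windows. GTTGCC, searched on both strands, was in 4 of the 15 axonemal windows, 4 of the 8 Ift windows and 12.2% of all windows, and it can overlap the paired arms. The forkhead motif TGTTTAC, searched on both strands, was in 2 of the 15, 0 of the 8 and 3.78% of all. These are matches of letters, from 7 patterns looked at on the members' windows, and the spacing of the arms was set after 2 of the stretches had been seen. Of the other 4 patterns, GTTNCC was in 10 of the 15 axonemal and 8 of the 8 Ift windows, but in 46.0% of all windows. TGTTTGC was in 3 and 2, and in 4.88% of all. GTTGCCATG was in 0 and 1, and in 0.741% of all, and a longer form, GTTNCC and GGNAAC up to 3 bases apart, in neither class and in 0.902% of all. These 4 were searched on both strands. The stretches are shown for the 4 axonemal genes with paired arms, in capitals, followed by 2 Ift genes with GTTGCC or its reverse complement in capitals.
Tekt2 (chr5:143907728-143907780, minus strand): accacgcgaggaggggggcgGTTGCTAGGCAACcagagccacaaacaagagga
Tekt4 (chr10:14992215-14992267, plus strand): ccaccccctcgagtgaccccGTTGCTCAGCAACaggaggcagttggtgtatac
Dnai1 (chr5:61525960-61526012, plus strand): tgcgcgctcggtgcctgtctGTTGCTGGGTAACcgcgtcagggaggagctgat
Dnai2 (chr10:100258940-100258992, plus strand): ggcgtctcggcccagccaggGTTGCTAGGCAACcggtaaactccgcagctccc
Ift81 (chr12:39618598-39618641, plus strand): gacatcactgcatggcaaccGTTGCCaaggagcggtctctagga
Ift88 (chr15:35688933-35688978, plus strand): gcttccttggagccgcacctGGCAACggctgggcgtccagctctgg
The capitals begin 36 bases before the gene start in Tekt2, 49 in Tekt4, 99 in Dnai1 and 62 in Dnai2, and Tekt4 holds a second pair of arms nearer its start. Ift81 also holds the reverse complement GGCAAC, left in lower case, just before its capitals. The stretch in capitals is the same 13 letters in Tekt2 and Dnai2, yet Tekt2 was listed at 0 in A12 and B14 and Dnai2 was highest there. Ift81 and Ift88 ran only from 5.53 to 9.41 and from 4.02 to 5.63 FPKM over the 6 tumors. The other Ift genes with GTTGCC, Ift20 and Ift27, ran from 52.4 to 126.8 and from 22.5 to 35.9 FPKM. Tekt1, an axonemal gene with GTTGCC, ran from 0 to 14.9 FPKM.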

How the data were processed

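RNA was measured in 6 PAIII tumors, 3 per group as labelled. The authors deposited FPKM per tumor, made from single reads with CASAVA, FastQC, Bowtie2, TopHat2 and Cufflinks, per the labels and methods. The submitters' notes list hg19, a human build, although the symbols are those of rat, so the table's positions carry no build here. Reads were not analysed, so depth is unknown. All 6 FPKM columns were used.

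Rows averaging 1 FPKM or more over the tumors, 10749 in all, were compared on log2(FPKM + 1) with limma 3.58.1 (lmFit, eBayes with a trend) in R 4.3.3, two-sided, with Benjamini-Hochberg adjustment over all rows. The scale understates changes of low genes. The labels do not say how replicates relate beyond 1 rat each. The study's Cuffdiff needs reads and was not repeated. The fit was tested on simulated data.

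Members and lists were chosen with earlier results of these data known. Members at the minimum were named with levels. Fold changes were given for Foxj1, members with an unadjusted p under 0.05 and the 3 largest per class, and other lists by their 2 most abundant genes. Other genes of the lists that are named, such as Zmynd10, Dync2li1, Lamp3, Wt1 and Tp73, and the order of the libraries were picked outside this rule or after values were seen, as was the 1.5-times limit for a moved spread.

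Deviations from the group means correlated at r = 0.426 for replicates 1, 0.606 for replicates 2 and 0.869 for replicates 3 across rows. The replicate numbers were taken as pairs for the block. A1 with B9 (0.644) and A6 with B5 (0.612) correlated more closely than replicates 1 and 2 did. The values therefore do not favor the pairs of replicates 1 and 2, and no label gives a shared day. Alternatives were a pseudocount of 0.1, no minimum, median-of-ratios scaling, no trend, the replicate block, tumors left out, repeated symbols summed, and class sums without their most abundant member. Promoter patterns came from RefSeq windows of 33469 genes. Some single genes of the lists are not reported here. A window of Spag6 on another chromosome was not used. Python 3.11.15, numpy 2.4.6, pandas 2.3.3 and matplotlib 3.10.9 were used.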

Additional observations from a re-analysis of the deposited data

How the results depend on the processing

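Of 223 recomputed values, none reversed, 12 moved and 4 counts grew past the limit of 1.5 times. The other 207 stayed within limits that are wide where tumors of a group differ widely: 1 SD between the tumors of a group for sums and medians, 1.5 times for counts and spreads, and for single genes the same sign and side of the adjusted threshold. A value within them can still move far, as the axonemal median did without A6 and as the axonemal sum of A12 did without Dnal4, from 54.2 to 24.4 FPKM. The number of axonemal members with an unadjusted p under 0.05, 0 in the fit of 6 tumors, was 7 with the replicate block and 10 without A12 and B14. It ran from 0 to 9 with each tumor left out, and the 9 came without A12. For Ift members it was 1 with median-of-ratios scaling, which also moved their median log2 fold change from 0.12 to 0.29, and 0 with each tumor left out. Among the members, the replicate block changed no other call except that of Foxj1, and none passed the adjusted threshold with it. The median SD of the axonemal members rose from 1.43 to 2.79 with a pseudocount of 0.1. The count over all rows at that p was 36, but 446 with the block, 133 with no minimum, 2114 without A12, 1183 without A12 and B14, 13 without A6, 13 without B9 and 19 without B5. With each tumor left out, the axonemal median ran from 0.23 to 2.01 and the Ift median from 0.05 to 0.21. The other 10 moved values were class sums, 2 from scaling and 8 from leaving out the most abundant member. Their causes were not tested. The unknown depth limits what values of 0 mean. In fits that leave 2 tumors in an arm, the spread is shared over all rows.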
